A study of Mus musculus with 18 samples.

Results

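Among 6 mouse pluripotent cell lines, the induced pluripotent stem (iPS) lines IP20D-3 and IP36D-3 had low levels of Meg3, and the other 4 lines expressed it. The Meg3-low lines gave 6 of the 18 arrays. The 4 expressing lines, R1, ESC2, IP14D-1 and IP14D-101, gave the other 12, with 3 arrays per line. The lines of each set were chosen by their Meg3 intensities on these same arrays, so the separation of Meg3 is a description here and was not tested.

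IP20D-3 and IP36D-3 carried the strain label B6 x D2 F1, as did the embryonic stem (ES) line ESC2 and the iPS line IP14D-1. R1 is an ES line, and its strain was 129X1/SvJ x 129S1 F1. IP14D-101 is an iPS line whose strain was B6 x 129S2 F1. All lines grew with leukaemia inhibitory factor (LIF) on mouse embryonic fibroblasts stopped with mitomycin C, in fetal bovine serum or a serum replacement; the labels do not say which line grew in which medium, and the reprogramming factors and passage numbers were not given in the sources used here. Total RNA was hybridised to Affymetrix expression arrays, and each value below is a probe set intensity made with RMA by the authors and taken to log2, so that a difference of 1 is a change of 2-fold. Each line is 1 line only, so the line, and not the array, was the unit: 2 line means were set against 4.

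Meg3, Rian and Mirg are long noncoding RNAs transcribed from the maternal copy of the Dlk1-Dio3 imprinted region, in the same direction and next to each other. Dlk1, which encodes a Notch-family ligand, Rtl1 and Dio3 are expressed from the paternal copy. DNA methylation of a control region upstream of Meg3 marks the paternal copy, and some mouse iPS lines are known to lose expression of the maternal RNAs.

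A gene was called separated when both Meg3-low line means lay above, or both lay below, the whole range of the other 4 line means. The gap of a gene is the distance between the nearest line means of the sets. Of 18193 genes measured, 2112 (11.6%) were separated higher and 2874 (15.8%) separated lower in the Meg3-low lines, which makes 4986 (27.4%) in all. These shares are the background for every count below. Their median gap was 0.109, and 7 genes (0.0385%) had a gap of at least 1 below the expressing lines and 5 (0.0275%) above them. Higd2a lay just inside the rule, with IP36D-3 at 10.56 and IP14D-101 also at 10.56 after rounding. Chmp5 lay just outside it, with both IP36D-3 and ESC2 at 10.41.

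All 6 lines held the markers of a pluripotent culture. Pou5f1, the central transcription factor of the pluripotent state, stood at 12.50 and 12.49 in the Meg3-low lines and between 12.12 and 12.64 in the expressing lines. Correlations of arrays were 0.994 to 0.998 within a line and 0.955 to 0.988 between lines. The root mean square difference over genes was 0.449 between IP20D-3 and IP36D-3. IP36D-3 was nearer to ESC2 (0.424) and IP14D-1 (0.432), and farther from IP14D-101 (0.47) and R1 (0.536). IP20D-3 was nearer to IP36D-3 than to any expressing line, from which it differed by 0.488 (IP14D-1) to 0.708 (R1). The expressing lines differed from each other by 0.378 to 0.587. The 3′ probe set for 18S ribosomal RNA read 161 to 539 (linear intensity) on the Meg3-low arrays, 203 to 230 in ESC2 and 37.8 to 88.5 in the other expressing lines. The beta-actin 3′ to 5′ ratio was 1.24 to 1.31 in the Meg3-low lines and 1.12 to 1.56 in the expressing lines. The part of RNA quality in the counts of separated genes was not tested.

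The start of the Meg3 transcript and small RNAs made from the 3 noncoding RNAs show what is encoded where the widest gaps lay. The RefSeq window around the first Meg3 start, chr12:109540746-109541045 on the plus strand of GRCm38.p6, covers 250 bases before the start and 50 after it. It holds 13 CpG dinucleotides, against a median of 7 over 32851 such windows, and 37.9% of windows have as many or more. The capitals mark the palindrome TGACGTCA, a cyclic AMP response element, 57 bases before the start, and the overlapping TATAAA letters on both strands 29 bases before it. On either strand, TGACGTCA is found in 1.79% of all windows and TATAAA in 13.6%. These matches describe the letters of the window, and no binding was measured.

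Meg3 window: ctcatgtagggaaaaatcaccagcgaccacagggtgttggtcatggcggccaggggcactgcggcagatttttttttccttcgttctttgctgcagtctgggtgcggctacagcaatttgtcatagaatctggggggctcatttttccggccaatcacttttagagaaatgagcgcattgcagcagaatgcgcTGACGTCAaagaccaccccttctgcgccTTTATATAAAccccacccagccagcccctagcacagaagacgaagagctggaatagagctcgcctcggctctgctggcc

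RefSeq places 28 mature microRNAs of 15 microRNA genes inside the 3 RNAs: 3 in Meg3, 6 in Rian and 19 in Mirg. The arrays measured the host transcripts and not the microRNAs. For each host, 1 or more mature sequences are shown 5′ to 3′ with the seed, bases 2 to 8, in capitals. Only miR-453 and miR-496a-5p, both in Mirg, share a seed among the 28.

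miR-770-5p (in Meg3): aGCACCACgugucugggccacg

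miR-370-3p (in Rian): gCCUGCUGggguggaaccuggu

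miR-453 (in Mirg): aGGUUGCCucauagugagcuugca

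miR-496a-5p (in Mirg): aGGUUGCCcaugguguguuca

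miR-409-5p (in Mirg): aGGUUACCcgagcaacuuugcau

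Meg3, the noncoding RNA that names the comparison, read 5.33, 5.11 and 5.24 on the arrays of IP20D-3 and 5.95, 6.0 and 5.76 on those of IP36D-3. The arrays of R1 read 10.22, 10.28 and 10.06, those of ESC2 11.30, 11.33 and 11.39, those of IP14D-1 10.81, 10.97 and 10.90, and those of IP14D-101 9.87, 10.11 and 9.14. No Meg3-low array came near an expressing one: the Meg3-low mean minus the expressing mean was -4.97 (31.3-fold lower) and the nearest line means were 3.80 apart (14.0-fold). On this probe set the expressing lines themselves spanned 1.64 (3.11-fold), in the order ESC2, IP14D-1, R1 and IP14D-101. Of the neighbours in that order only R1 and IP14D-101 had overlapping arrays. The residual level in the Meg3-low lines was near or under the median level of all genes, 5.92.

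**Figure D1:**
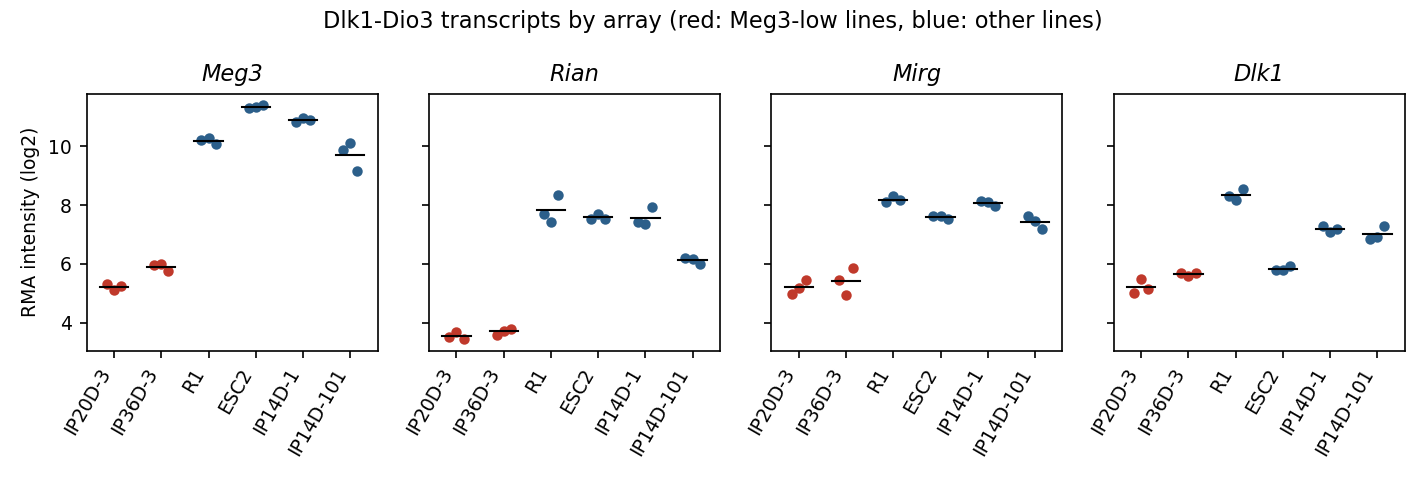
RMA intensity (log2) of Meg3, Rian, Mirg and Dlk1 on each of the 18 arrays, by cell line. Points are arrays and bars are the means of 3 arrays; for the 3 noncoding RNAs all 6 Meg3-low arrays (red) sit far below the 12 others (blue), while for Dlk1 ESC2 comes close to IP36D-3.

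Rian, which hosts small nucleolar RNAs and microRNAs, read 3.52, 3.68 and 3.45 on the IP20D-3 arrays and 3.60, 3.73 and 3.79 on the IP36D-3 arrays. It read 7.70, 7.41 and 8.34 in R1, 7.53, 7.70 and 7.52 in ESC2, 7.43, 7.37 and 7.92 in IP14D-1, and 6.20, 6.17 and 5.99 in IP14D-101. The sets did not overlap, with a difference of -3.65 (12.5-fold lower) and a gap of 2.41, and IP14D-101 was the lowest of the expressing lines. Mirg, the host of a microRNA cluster, read 4.99, 5.18 and 5.46 on the IP20D-3 arrays and 5.45, 4.95 and 5.87 on the IP36D-3 arrays. Its levels were 8.09, 8.30 and 8.16 in R1, 7.61, 7.63 and 7.52 in ESC2, 8.15, 8.10 and 7.95 in IP14D-1, and 7.62, 7.47 and 7.19 in IP14D-101. The difference of the sets was -2.5 (5.65-fold lower) and the gap was 2.00.

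Every probe set of the 3 RNAs separated the sets in the same direction. All 17 were separated lower: 11 for Meg3, 4 for Rian and 2 for Mirg. The set difference ran from -0.72 to -5.98 over the Meg3 probe sets, from -2.51 to -4.46 for Rian and from -2.5 to -4.11 for Mirg. IP14D-101 was the lowest expressing line in 16 of the 17. The order of the other expressing lines varied with the probe set. On another Meg3 probe set ESC2 stood at 9.55, below R1 at 9.93 and IP14D-1 at 10.5.

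Dlk1, the paternally expressed gene of the region, followed the rule by a narrow margin. The IP20D-3 arrays read 5.02, 5.47 and 5.15, the IP36D-3 arrays 5.69, 5.58 and 5.69, and the arrays of the ES line ESC2 5.79, 5.80 and 5.93. R1 stood at 8.32, 8.16 and 8.54, IP14D-1 at 7.30, 7.07 and 7.19, and IP14D-101 at 6.85, 6.93 and 7.30. The Meg3-low arrays therefore lay below all others, but the gap to ESC2 was 0.19. On the Meg3 probe set with the highest mean, ESC2 had the highest level of the 6 lines, but on some others it did not. A second Dlk1 probe set, with line means between 3.21 and 3.71, was not separated. Rtl1 and Dio3 were not analysed here.

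Of 17 measured neighbours of the region on chromosome 12, 4 were separated lower and 1 higher, 23.5% and 5.88% against 15.8% and 11.6% of all genes. Evl, an actin regulator, averaged 6.95 and 7.45 in the Meg3-low lines against 7.55 to 8.21, with a gap of 0.10. Slc25a29, a mitochondrial carrier, had a gap of 0.22, and Yy1, a transcription factor, one of 0.03. Gaps as wide as those of the noncoding RNAs were not seen in these neighbours.

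IP20D-3 and IP36D-3 were also compared with each other. Both had to be low in Meg3 to be chosen, and both had to lie on the same side of the expressing lines for a gene to be separated. Their differences and p-values in Meg3 and in separated genes are therefore descriptive, here and below. IP20D-3 minus IP36D-3 was -0.68 ± 0.16 (SE) for Meg3, with an adjusted p of 0.00272 in limma, below the difference of 1 that a call needed here. Rian differed by -0.16 ± 0.18 (adjusted p = 0.547) and Mirg by -0.21 ± 0.17 (adjusted p = 0.37), neither past the test's threshold. Dlk1 differed by -0.44 ± 0.13 (adjusted p = 0.0113).

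Among all separated genes, those of the 12 widest gaps below the expressing lines were Meg3, Rian, Rbm45, Mirg, Tmem87a, Cdkn1a, Phlda1, Nnat, Vim, Acta2, E2f5 and Phlda3. Naming was limited to genes at 6 or more in the higher set whose 6 Meg3-low arrays did not overlap the 12 others. Over all genes 360 (1.98%) lay lower without overlap and 866 (4.76%) higher. Of these 12 genes, 4 (Rbm45, Tmem87a, Nnat and Vim) lie on chromosome 2, which holds 7.69% of all genes. Over the whole of chromosome 2, 243 of 1399 genes (17.4%) were separated lower, near the 15.8% of all genes. Of the 360 genes lower without overlap, 31 lie on it.

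Rbm45, which encodes an RNA-binding protein, ranged over 5.77, 6.17 and 6.95 (lowest, median and highest array) in the Meg3-low lines and over 8.59, 9.33 and 10.03 in the expressing lines. The set difference was -3.07, an 8.41-fold lower level, and the gap of 2.28 stood between those of Rian and Mirg. Tmem87a, which encodes a membrane protein of the Golgi, ranged over 4.13, 4.69 and 5.17 in the Meg3-low lines and over 6.74, 7.23 and 7.80 in the others, a difference of -2.59. Each was measured by 1 probe set. Neither differed between the Meg3-low lines past the test's threshold (adjusted p of 0.12 and 0.153, limma). Both lines of strain B6 x D2 F1 among the expressing lines, ESC2 and IP14D-1, stood above the Meg3-low lines of the same strain, with Rbm45 at 9.60 and 9.07. The part of strain in these levels was not tested.

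Cdkn1a, the cyclin-dependent kinase inhibitor p21 and a main target of p53, ranged over 7.26, 7.42 and 7.61 in the Meg3-low lines and over 8.60, 8.94 and 9.55 in the expressing lines. It was 2.95-fold lower, with a gap of 1.21, and its second probe set went the same way but was not separated. The Meg3-low lines were nearly equal, at 7.43 and 7.42 (difference 0.01 ± 0.09, adjusted p = 0.954, limma). Phlda3, a p53 target that restrains Akt, ranged over 7.82, 7.99 and 8.15 against 8.66, 9.04 and 9.97. It too was nearly equal in the Meg3-low lines, at 7.99 and 7.98.

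Phlda1, which encodes a pleckstrin homology-like protein, stood at 6.20 in both Meg3-low lines and at 7.38 to 9.25 in the others, with R1 the highest. E2f5, a transcription factor of the cell cycle, stood at 7.53 and 7.93 against 8.72 to 9.0. Both of its other probe sets went the same way, and 1 of them was separated. Nnat, a paternally expressed imprinted gene on chromosome 2, ranged over 5.79, 6.62 and 7.19 against 7.99, 8.38 and 9.11. Nnat was also lower in IP20D-3 than in IP36D-3, with a difference of -1.16 ± 0.12 (adjusted p = 4.82e-07, limma).

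**Figure D2:**
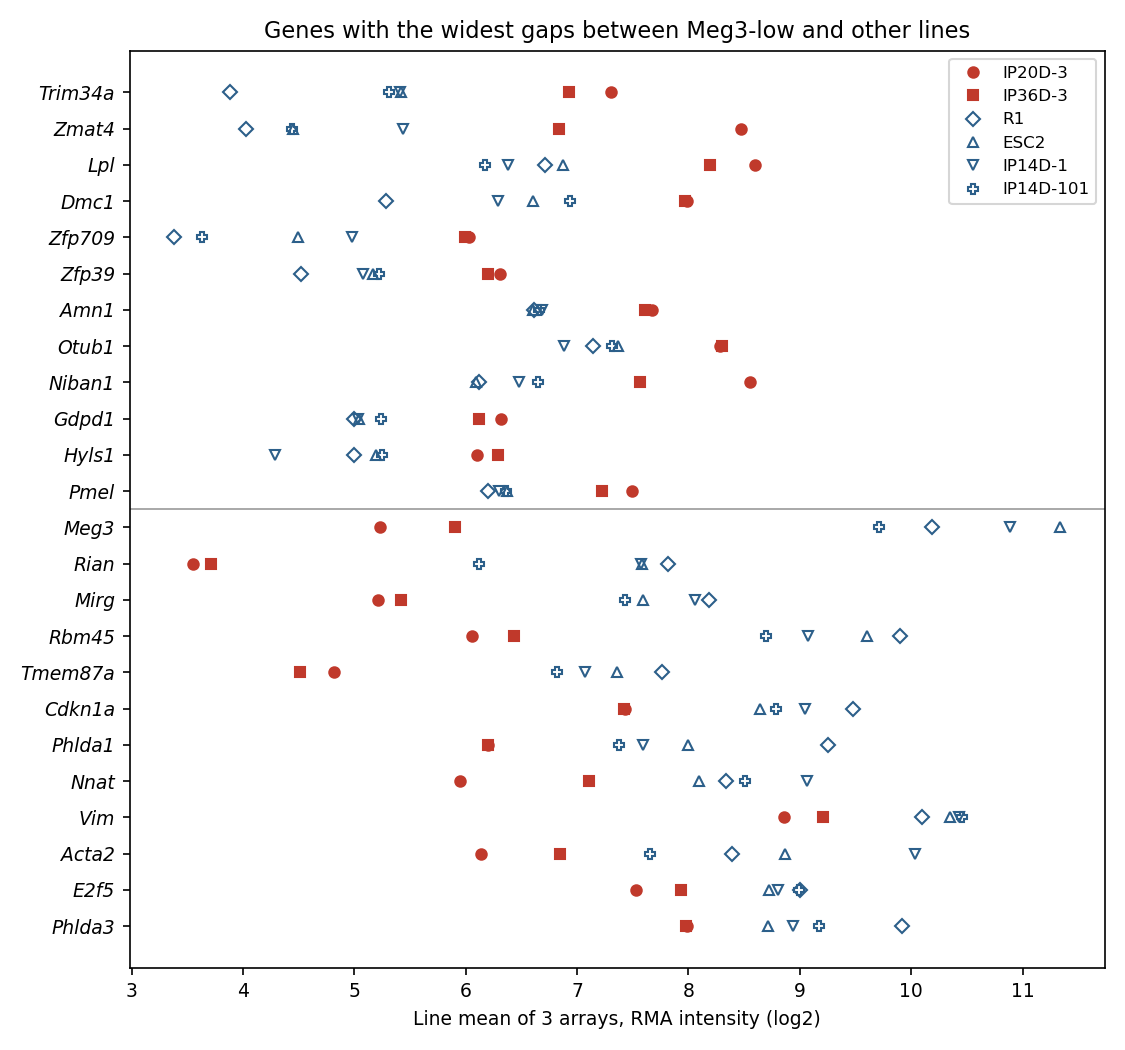
Line means (3 arrays, RMA intensity in log2) of the 12 genes with the widest gap above and the 12 with the widest gap below the expressing lines. Red filled symbols are the Meg3-low lines and blue open symbols the expressing lines; the genes were chosen for this separation, and the gaps run from 0.73 for Phlda3 to 3.80 for Meg3.

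The 12 widest gaps above the expressing lines were smaller, from 0.85 to 1.51, and belonged to Trim34a, Zmat4, Lpl, Dmc1, Zfp709, Zfp39, Amn1, Otub1, Niban1, Gdpd1, Hyls1 and Pmel. Trim34a, a member of the tripartite motif family, ranged over 6.79, 7.11 and 7.42 in the Meg3-low lines and over 3.70, 5.32 and 5.66 in the others. Its other probe set, at a level under 6, did not go the same way. Lpl, lipoprotein lipase, ranged over 8.04, 8.34 and 8.77 against 6.09, 6.63 and 6.95, a 3.63-fold higher level that its second probe set shared in direction. Dmc1, the recombinase of meiosis, ranged over 7.76, 7.92 and 8.28 against 5.21, 6.42 and 7.06, also with its second probe set in the same direction.

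Zmat4, which encodes a zinc finger protein, ranged over 6.57, 7.77 and 8.80 in the Meg3-low lines and over 3.77, 4.47 and 5.54 in the expressing lines. It was 8.38-fold higher, and within the Meg3-low lines it was higher in IP20D-3 by 1.63 ± 0.17 (adjusted p = 4.55e-07, limma). Of its 2 other probe sets, both under a level of 6, 1 went the same way, and with the median of its probe sets the set difference was 0.77 in place of 3.07. Niban1, a stress-responsive gene, stood at 8.55 and 7.56 against 6.09 to 6.65. Amn1 was the tightest of the group, at 7.67 and 7.61 against 6.60 to 6.68 in the 4 expressing lines. The single other probe set of Otub1, which encodes a deubiquitinase, and that of Hyls1, which encodes a centriole protein, did not go the same way as the one reported.

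The direction of separation went with the level of a gene. At or above the median level 1559 of 9097 genes were separated higher (17.1%) and 755 lower (8.3%), while below it 553 of 9096 were separated higher (6.08%) and 2119 lower (23.3%). Genes below the median level are dim on these arrays, and many of their gaps are small. List members were therefore also counted at or above the median level, where that bears on the count.

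Targets of p53 and inhibitors of the cell cycle included 7 separated lower and 0 higher of 21 measured (33.3% lower, against 15.8% of all genes): Cdkn1a, Phlda3, Cdkn2b, Aen, Mdm2, Fas and Ccng1. At or above the median level 6 of 18 were lower, against 8.3% of all genes there. The list's median difference was -0.41, against -0.05 over all genes. Aen, a nuclease induced by p53, stood at 9.13 and 8.15 against 9.52 to 10.46 and was higher in IP20D-3 than in IP36D-3 by 0.99 ± 0.09 (adjusted p = 9.22e-08, limma). Cdkn2b, the kinase inhibitor p15, stood at 4.94 and 5.61 against 6.04 to 7.30. Other members did not follow: Bbc3, a mediator of cell death, stood at 7.62 and 7.35 with ESC2 lower at 7.24, and Trp53inp1 stood at 10.97 and 10.47 with R1 and IP14D-101 lower. Summed over the list, linear intensities were 9073 to 9977 in the Meg3-low lines and 9668 to 14137 in the expressing lines, with IP14D-101 overlapping at 9668 to 10139.

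Fibroblast markers, which here can come from the feeder layer, were lower beside these genes. Of 31 measured, 18 (58.1%, against 15.8% of all genes) were separated lower and 0 higher, 9 of them without overlap of arrays. At or above the median level 6 of 9 were lower: Col5a1, Col6a2, Vim, Acta2, Sparc and Thbs1. The other 22 lay below that level, 12 of them separated lower. Over all genes the lower shares were 8.3% at or above that level and 23.3% below it. In bulk RNA fewer fibroblasts and less marker RNA per cell cannot be told apart.

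Vim, the intermediate filament vimentin, ranged over 8.73, 9.03 and 9.26 in the Meg3-low lines and over 10.03, 10.38 and 10.58 in the others, and both of its other probe sets went the same way. Acta2, smooth muscle actin, ranged over 6.0, 6.50 and 6.96 against 7.57, 8.65 and 10.14. Of its 2 other probe sets, both under a level of 6, 1 went the same way and 0 were separated, and with the median of its probe sets the difference was -0.14 in place of -2.24. The collagen gene Col1a2 stood at 4.35 and 4.57 against 4.96 to 6.51, and Col5a2 at 3.95 and 4.23 against 4.64 to 6.51. The markers Dcn, Lum, Postn, Thy1 and Cdh11 were not separated, and of them Lum stood between 3.19 and 3.38 in all 6 lines.

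Summed linear intensity of the 31 markers was 4042 to 4824 in the Meg3-low lines. It was 5995 to 6550 in IP14D-101, 6003 to 6714 in ESC2, 8900 to 9425 in IP14D-1 and 9613 to 10372 in R1. Without Vim, Fn1 and Sparc the sums were 862 to 1436 in the Meg3-low lines and 1350 to 5914 in the expressing lines, where IP14D-101 at 1350 to 1536 overlapped IP36D-3 at 1356 to 1436. In that line Cdkn1a stood at 8.79 and Phlda3 at 9.17, while the highest Meg3-low arrays read 7.61 and 8.15. The part of feeder RNA in the lower levels of p53 targets and of Meg3 was not tested.

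**Figure D3:**
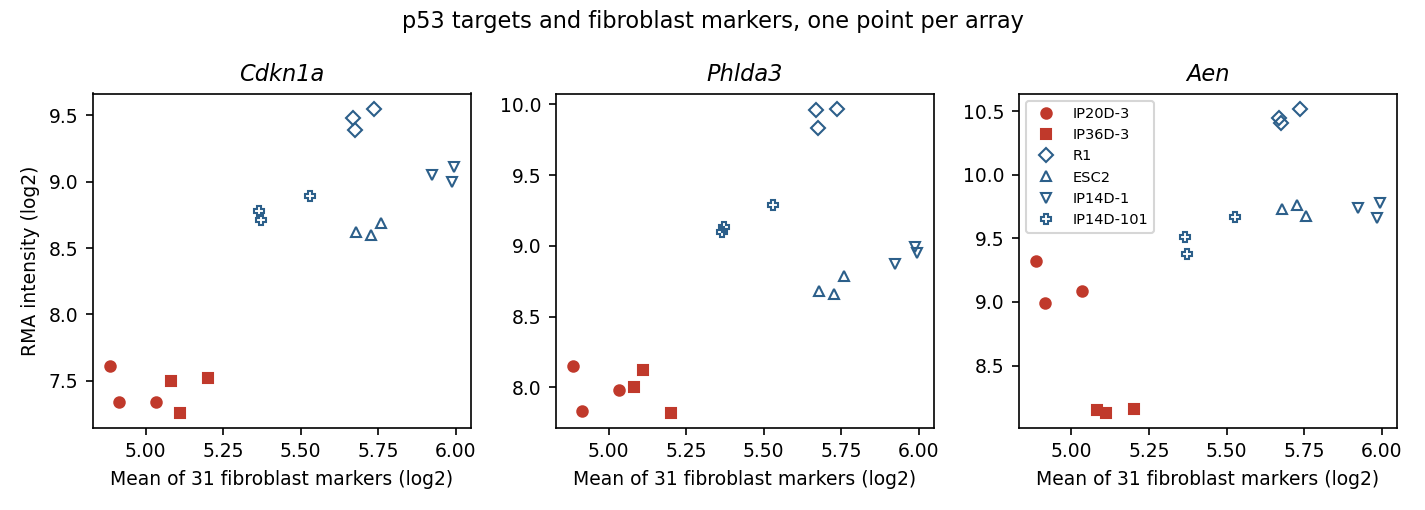
RMA intensity (log2) of the p53 targets Cdkn1a, Phlda3 and Aen on each array against the mean log2 intensity of the 31 measured fibroblast markers on the same array. Each point is 1 of 18 arrays; the Meg3-low lines (red) are lowest in both measures, with line means of 4.94 and 5.13 for the markers, and IP14D-101 at 5.42 is the nearest of the others.

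Markers of the pluripotent state itself were not separated: 0 of 31 higher and 0 lower, against 11.6% and 15.8% of all genes. All 31 lay at or above the median level, where the shares of all genes were 17.1% and 8.3%. Nanog stood at 11.81 and 11.24 in the Meg3-low lines against 11.27 to 11.76, and Sox2 at 12.17 and 11.71 against 11.58 to 12.15. Between the Meg3-low lines 11 of the 31 were called in limma, against 4.24% of all genes (772). Of these, 9 were higher in IP20D-3 and 2 lower, against 2.36% and 1.89% of all genes. Klf4, a pluripotency transcription factor, was higher in IP20D-3 by 1.10 ± 0.07 (adjusted p = 1.95e-09).

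Genes of the primed epiblast, the state that follows the naive one in the embryo, had 2 of 15 measured separated lower (13.3%, against 15.8% of all genes), Foxd3 and Sox3, and 0 higher. The list's median difference between the sets was -0.53. By the limma test 9 were lower in IP20D-3 than in IP36D-3 and 0 higher, against 1.89% and 2.36% of all genes. Fgf5, a growth factor of the primed state, was lower in IP20D-3 (difference -2.33 ± 0.21, adjusted p = 9.30e-08), and so was Otx2, a transcription factor of that state (difference -2.19 ± 0.16, adjusted p = 1.02e-08). IP36D-3, at 6.43 for Fgf5 and 8.75 for Otx2, stood beside ESC2 at 6.86 and 8.73. Dnmt3a, a DNA methyltransferase, was likewise lower in IP20D-3 (difference -2.26 ± 0.12, adjusted p = 1.31e-10).

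Endoplasmic reticulum and amino acid stress genes had 1 of 26 separated higher (3.85%, against 11.6% of all genes), Psat1, an enzyme of serine synthesis, and 0 lower. The list's median difference was 0.70, against -0.05 over all genes. Between the Meg3-low lines 13 were higher in IP20D-3 and 1 lower by the limma test, against 2.36% and 1.89% of all genes. Ddit3, the stress transcription factor CHOP, stood at 9.86 in IP20D-3 and 8.05 in IP36D-3 (difference 1.80 ± 0.23, adjusted p = 6.64e-06, limma). The arrays of IP36D-3 spread widely, at 8.61, 8.23 and 7.32. IP14D-1 stood at 9.46 and the other expressing lines at 6.13 to 6.50. The level of Ddit3 in the expressing line IP14D-1 kept this gene inside the range.

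Imprinted genes elsewhere in the genome did not move as the Dlk1-Dio3 RNAs did. Of 25 paternally expressed genes 4 were separated lower (16%, against 15.8% of all genes) and 0 higher: Nnat, Peg12, Airn and Mest. Of these only Nnat had no overlap of arrays. At or above the median level 2 of 17 were lower, against 8.3% of all genes there. Mest, which encodes a hydrolase-like protein, stood at 9.16 and 10.21 against 10.27 to 10.98 and was lower in IP20D-3 than in IP36D-3 with a difference of -1.04 ± 0.07 (adjusted p = 3.80e-09, limma). Of 20 maternally expressed genes 3 were lower (15.0%) and 4 higher (20.0%, against 11.6% of all genes). At or above the median level 0 of 10 were lower and 3 higher, against 8.3% and 17.1% of all genes there. Copg2, a coat protein gene that neighbours Mest on chromosome 6, stood at 8.82 and 8.26 against 7.58 to 7.97, and Ppp1r9a, on the same chromosome, at 7.65 and 8.06 against 6.97 to 7.33.

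The enzymes and factors that protect imprints or methylate DNA were not separated: 0 of 19 in either direction, against 11.6% of all genes higher and 15.8% lower. Between the Meg3-low lines 4 of the 19 were called in limma, against 4.24% of all genes. Of these, 1 was higher in IP20D-3 and 3 were lower. Zfp57, which keeps methylation at imprinted control regions, stood at 7.11 and 7.03 in the Meg3-low lines, above ESC2 at 6.26 and below the other 3 lines at 8.70 to 9.57. Dppa3, a maternal factor that shields DNA methylation, stood at 8.41 and 9.43 against 6.65 to 9.22. Of 13 genes of Polycomb repressive complex PRC2 and its partners, 1 was lower (7.69%, against 15.8% of all genes), Phf1, with a gap of 0.16.

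Primitive and visceral endoderm genes were separated lower in 6 of 23 (26.1%), trophectoderm genes in 5 of 19 (26.3%), primitive streak and mesoderm genes in 5 of 21 (23.8%) and neuroectoderm genes in 1 of 19 (5.26%), with 0 higher in any of these lists. Over all genes 15.8% were separated lower, and over those below the median level 23.3%. At or above the median level the counts of lower genes were, in the same order, 2 of 9, 2 of 8, 0 of 2 and 0 of 10. There 8.3% of all genes were lower. Col4a1, a basement membrane collagen that primitive endoderm makes, stood at 6.29 and 7.22 against 7.51 to 9.69. Gata6, which directs primitive endoderm, stood at 3.68 and 4.25 and was not separated, with IP14D-101 at 7.34 and ESC2 at 3.76.

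Immediate-early genes, which answer growth factors, were separated lower in 7 of 26 (26.9%) and higher in 1 (3.85%). Over all genes these shares were 15.8% and 11.6%. All 7 lower genes had overlapping arrays. At or above the median level 3 of 21 were lower, against 8.3% of all genes there. Srf, the serum response factor, stood at 6.49 and 7.04 against 7.12 to 8.68. Its second probe set went the same way but was not separated. Of 15 heat shock genes 3 were lower (20.0%) and 2 higher (13.3%, Hspa4l and Hspb8), near the shares of all genes. Cryab, a small heat shock protein gene among the lower ones, stood at 4.14 and 5.26 against 5.75 to 6.88. Of 25 germline genes 1 was higher (4.0%) and 2 were lower (8.0%, Rhox9 and Tdrd9), both under the shares of all genes. Piwil2, whose protein binds piwi-interacting RNAs, was the higher one, at 8.19 and 7.21 against 5.95 to 6.71. Cholesterol synthesis (0 of 18) and the 6 reprogramming factors (0 of 6) held no separated gene, against 27.4% of all genes separated either way.

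**Figure D4:**
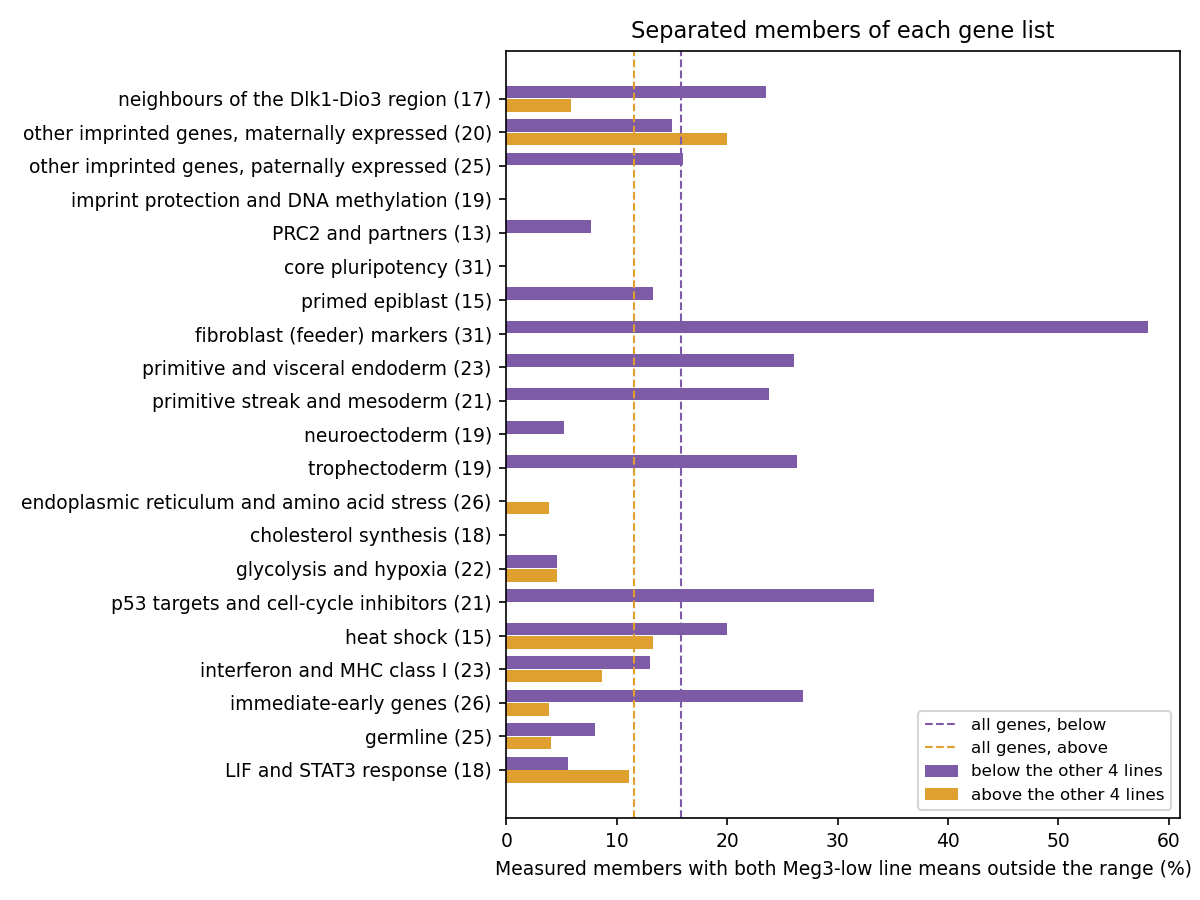
Share (%) of the measured members of each gene list whose Meg3-low line means both lay below (purple) or above (orange) the other 4 lines, with the number measured in parentheses. Dashed lines are the shares over all 18193 genes, 15.8% below and 11.6% above; fibroblast markers reach 58.1% below and p53 targets 33.3%, while core pluripotency stays at 0.

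Chromosome 8 held a larger share of genes separated higher than the other autosomes and the X chromosome. There 223 of 932 genes (23.9%) were higher, against 1889 of 17261 (10.9%) elsewhere, and the shares of those other chromosomes ran from 7.18% on chromosome 15 to 13.7% on chromosome 13. Without overlap of arrays 137 (14.7%) were higher, against 4.22% elsewhere. Zmat4, Lpl and Zfp709, 3 of the 12 genes with the widest gaps above, lie on it.

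The level of the whole chromosome was not alike in the Meg3-low lines. The median difference of chromosome 8 genes, relative to all genes, was 0.22 (1.16-fold) in IP36D-3 and 0.05 in IP20D-3. It was 0.04 in R1, -0.02 in ESC2 and IP14D-1 and 0.00 to 2 decimals in IP14D-101. No copy number was measured. With IP36D-3 set alone against the 4 expressing lines, 404 genes of the chromosome (43.3%) were above them, against 20.1% of all genes. With IP20D-3 alone it was 282 (30.3%), against 23.2% of all genes.

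**Figure D5:**
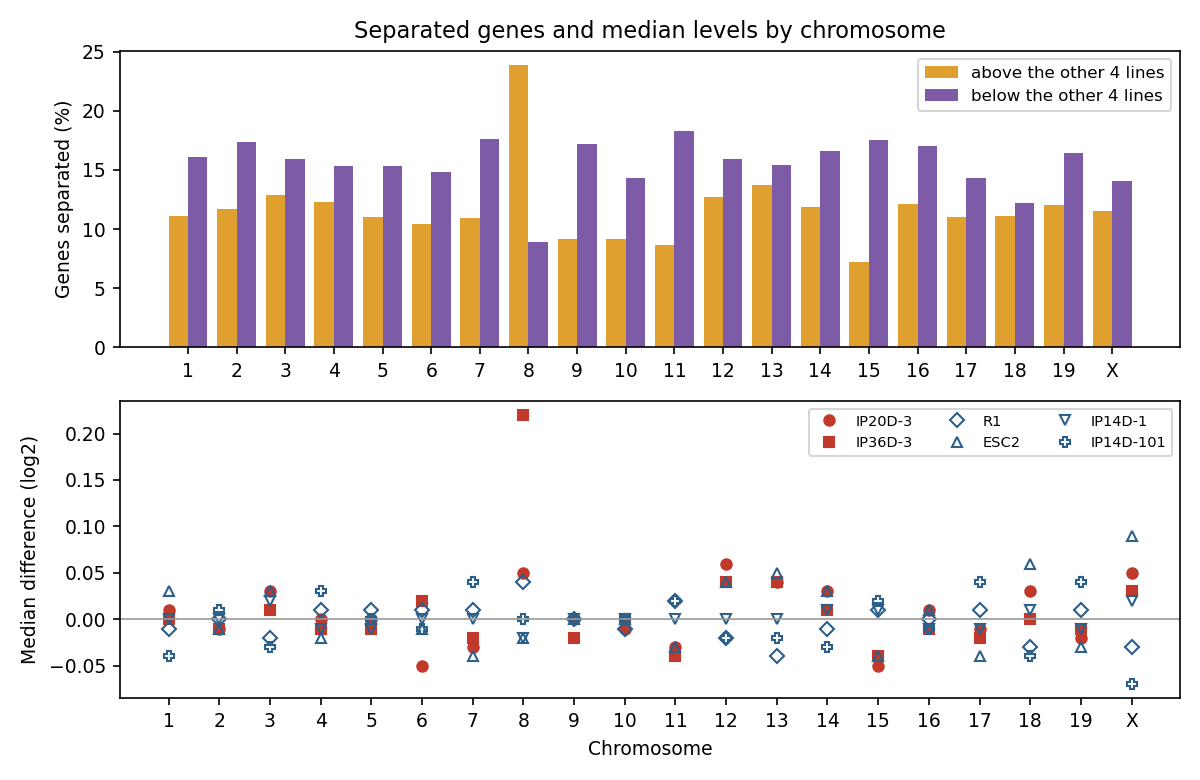
Top, the share (%) of genes on each chromosome whose Meg3-low line means both lay above (orange) or below (purple) the other 4 lines. Bottom, the median log2 difference of the genes of a chromosome relative to all genes in each line; chromosome 8 stands out with 23.9% above, and IP36D-3 lies at 0.22 there.

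The expressing line nearest the Meg3-low lines was most often ESC2, in 1702 of the 2874 genes separated lower and 709 of the 2112 separated higher. IP36D-3 was the Meg3-low line nearer the others in 1859 and 1347 of these genes. Of the 4986 separated genes, 63 (1.26%) were also called between IP20D-3 and IP36D-3, and this share is not set against the 4.24% of all genes, because separation asks both lines to lie on 1 side. Of the 52 called among genes separated higher, 49 were higher in IP20D-3, and all 11 called among genes separated lower were lower in IP20D-3. In all but 3 of the 63, IP20D-3 was the line farther from the expressing set.

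A limma fit to the 6 line means called 0 of 18193 genes (0.0%) at an adjusted p under 0.05 and a difference of at least 1, with 2593 (14.3%) at an unadjusted p under 0.05. The lines were sorted by Meg3, so nothing is read from that fit about Meg3. The labels call the 3 arrays of a line biological replicates without saying what was repeated, so the spread between them, on which the p-values for IP20D-3 against IP36D-3 rest, may be technical.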

How the data were processed

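The deposited values are probe set intensities on a linear scale, made by the authors with RMA, per the design text in the labels and the submitters' notes on processing; its version and the gene build are not given in the sources used here. Array medians ran from 29.2 to 30.5, and values were taken to log2. Of 45101 probe sets, 64 controls were left out and 34945 had 1 gene symbol in the platform annotation (932 had several, 9160 none); 34741 were found in RefSeq (GRCm38.p6). A gene took its probe set with the highest mean, leaving 18193 genes, 9010 with several probe sets.

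Lines were grouped by title. The main comparison was the separation of line means. IP20D-3 and IP36D-3 were compared in limma 3.58.1 (R 4.3.3) with a mean per line over 18 arrays and Benjamini-Hochberg adjustment over all genes; calls needed an adjusted p below 0.05 together with a difference of 1 or more in log2. The steps were tested on simulated data. Python 3.11.15, pandas 2.3.3, numpy 2.4.6 and matplotlib 3.10.9 were used. The number of arrays limits precision.

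The lines, the 26 gene lists and the rules were chosen with earlier results of these data known. Named were the Dlk1-Dio3 genes, the 12 widest gaps per direction (6 or more in the higher set, no overlap of arrays, no clone or predicted symbols), up to 4 separated members per list, the genes just inside and outside the rule, and further list members and markers given as values. Likeness to Meg3 over the 6 lines is not given, since the lines fall into separate clusters in Meg3 and it could not be told apart from the separation. Alternatives varied the probe set rule, level filter, scaling, offset, lines, strain, cell type, arrays and model. Sequences are RefSeq's.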

Additional observations from a re-analysis of the deposited data

Results flagged for a closer look

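In 7 of 80 named genes, 1 of the 4 expressing line means stood apart from the other 3. Its gap to the nearest neighbour took more of the range of the 4 than Dixon's critical value. Many of these genes were named by the same line means, so the usual rate of about 1 in 20 does not apply to them. How often this happened over all genes is not given here. For Rian the part of the range taken by the gap was 0.857, with IP14D-101 at 6.12 against 7.57 to 7.82. It was 0.93 for Trim34a, with R1 at 3.88 against 5.31 to 5.42, and 0.85 for Gdpd1, with IP14D-101 at 5.24 against 5.00 to 5.04. It was 0.89 for Peg12 (IP14D-1 low), 0.841 for Phf1 (IP14D-101 high), 0.845 for Gata2 (R1 high) and 0.885 for Rhox9 (ESC2 high).

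Of 10092 probe sets without a single gene symbol, 2424 (24.0%) were separated and 2 had a gap of at least 1. The one lower in the Meg3-low lines had means of 3.23 (IP20D-3) and 3.16 (IP36D-3), against 7.70, 8.35, 7.68 and 6.68 in R1, ESC2, IP14D-1 and IP14D-101, a gap of 3.45. The one higher in them stood at 6.33 and 5.14 against 3.59, 2.96, 2.47 and 3.13, a gap of 1.55. Both were outside the genes compared.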

How the results depend on the processing

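The 4986 separated genes became 7769 without IP20D-3 (3648 higher), 10183 without IP36D-3 (4218 higher and 5965 lower), 8286 without ESC2 (5309 lower), 7832 within the B6 x D2 F1 lines and 9260 within the iPS lines (3555 higher and 5705 lower); fewer lines make separation easier by construction. At or above the median level they were 2314 (755 lower), and a gap of at least 1 left 12. The level filter moved the higher share of separated genes from 42.4% to 67.4%, scalings gave 38.1% to 45.4%, and the B6 x D2 F1 lines alone 51.6% (4040 higher, 3792 lower). The 1226 genes without overlap of arrays became 2417 without IP20D-3, 4229 without IP36D-3, 2812 without ESC2, 2637 within the B6 x D2 F1 lines and 3268 within the iPS lines. Fibroblast markers lower were 6 with the level filter. The p53 targets lower were 11 within the B6 x D2 F1 lines and 5 with the median of a gene's probe sets. With that median they were 23.8% of the list, against 14.8% of all genes. Chromosome 8 genes higher were 404 without IP20D-3 and 344 within the B6 x D2 F1 lines.

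Leaving out 1 array at a time gave 4470 to 5256 separated genes (2050 to 2243 higher, 2420 to 3169 lower), 1245 to 1464 without overlap, 16 to 20 fibroblast markers, 7 to 8 p53 targets, 217 to 228 genes of chromosome 8, 0 to 0 calls on line means and 737 to 818 between IP20D-3 and IP36D-3. The 0 calls on line means became 1 with the median of a gene's probe sets (Mirg), 1 with the level filter (Meg3) and 1 without IP14D-101 (Rian). They became 452 with lines fixed over 18 arrays and 298 with the line as a random block, fits that lean on the spread between arrays of a line. The 772 calls between IP20D-3 and IP36D-3 were 501 with the level filter (244 higher in IP20D-3 and 257 lower, in place of 429 and 343) and 479 with 16 added to the intensity.

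The labels do not say that replicate numbers pair the arrays, and they were not taken to: same-numbered arrays correlated at 0.038 on average (-0.246 to 0.255) and others at -0.019, though 13 of 18 correlated best with their own number. With a replicate block, calls were 452 with lines fixed over arrays and 772 between IP20D-3 and IP36D-3, as without it. With the median of a gene's probe sets, set differences that moved by over 1.5 times, besides Zmat4 and Acta2, were -2.43 for Meg3, 1.03 for Trim34a, 0.74 for Zfp39, 0.49 for Amn1, 0.44 for Otub1, 0.63 for Hyls1 and -0.55 for E2f5.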
